A study of Mus musculus with 50 samples.

Results

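To compare open chromatin between organs, the ATAC-seq libraries of young kidney were set against those of young liver, 6 of the 50 samples of the study. Each organ had 3 libraries, all from untreated C57BL/6 mice of 2.5 months, and the study describes its animals as female and the tissue as frozen before use. They were chosen by their titles, and intervals that a peak list held more than once were taken once. Gene expression came from 4 RNA-seq libraries of young kidney and 4 of young liver of the same strain, age and lack of treatment, and ATAC-seq of kidney and liver from untreated mice of 23 to 25 months served as libraries outside the comparison. The labels do not tie an ATAC library to an RNA library or to a single mouse, so p values measure the spread between libraries.

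ATAC-seq cuts and tags DNA with the Tn5 transposase where nucleosomes and other proteins leave it bare, so that its peaks mark promoters in use, enhancers and other bound elements. Promoters lie at the start sites of genes, and many of them are open in every tissue. Enhancers lie farther off, are bound by the transcription factors of a cell type and differ more between tissues. The kidney is mostly tubule epithelium that recovers salts, sugars and proteins from the filtrate, and the liver is mostly hepatocytes that make plasma proteins, bile acids and urea. HNF1 factors act in both epithelia, PAX2 and PAX8 and posterior HOX genes belong to the kidney lineage, and C/EBP and FOXA factors to hepatocytes.

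The peaks of the 6 libraries merged into 343903 regions. A region is called kidney-only when all 3 kidney libraries and none of the 3 liver libraries had a peak there, and liver-only in the reverse case. The sequences that follow come from such regions at genes of each organ, and illustrate the elements compared and the motif letters searched. Each is the plus strand of GRCm38, 5′ to 3′, within 100 bp of the summit, apart from the Hpx promoter, which is the minus strand from RefSeq (GRCm38.p6), from 250 bases before to 50 after the start. Capitals mark letters that match a searched motif: GTTAATNAT (HNF1), TTGCNNAA (C/EBP), TGTTTAC (FOXA), CCATAAA (HOX9-11) and GGGCGG (SP/KLF), on either strand.
Grhl2 intron, kidney-only, chr15:37234382-37234582: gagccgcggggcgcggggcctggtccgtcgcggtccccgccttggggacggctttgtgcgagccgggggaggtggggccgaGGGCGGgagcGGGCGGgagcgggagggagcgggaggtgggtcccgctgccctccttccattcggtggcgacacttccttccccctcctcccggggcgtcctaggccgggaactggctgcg
5.2 kb from Hao1, intergenic, liver-only, chr2:134559470-134559670: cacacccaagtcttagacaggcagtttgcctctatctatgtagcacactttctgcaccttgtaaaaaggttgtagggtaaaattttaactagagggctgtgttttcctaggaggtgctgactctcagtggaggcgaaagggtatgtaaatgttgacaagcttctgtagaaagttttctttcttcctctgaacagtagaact
Cubn intron, kidney-only, with HNF1 letters, chr2:13479199-13479399: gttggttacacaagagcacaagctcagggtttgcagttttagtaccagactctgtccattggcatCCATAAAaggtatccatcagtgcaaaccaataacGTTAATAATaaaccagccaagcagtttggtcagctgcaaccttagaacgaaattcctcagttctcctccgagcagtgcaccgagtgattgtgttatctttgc
26.9 kb from Grhl2, intergenic, kidney-only, with HNF1 letters, chr15:37206057-37206257: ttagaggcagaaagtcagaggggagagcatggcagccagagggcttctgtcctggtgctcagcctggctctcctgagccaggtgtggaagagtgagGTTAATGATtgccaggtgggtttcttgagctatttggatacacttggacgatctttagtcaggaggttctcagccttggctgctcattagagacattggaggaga
32.6 kb from Cyp7a1, intergenic, liver-only, with C/EBP letters, chr4:6242914-6243114: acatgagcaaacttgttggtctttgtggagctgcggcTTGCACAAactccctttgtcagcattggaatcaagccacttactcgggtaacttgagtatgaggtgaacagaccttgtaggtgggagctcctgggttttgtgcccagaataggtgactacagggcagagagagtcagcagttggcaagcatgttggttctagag
5.9 kb from Hp, intergenic, liver-only, with C/EBP and FOXA letters, chr8:109584941-109585141: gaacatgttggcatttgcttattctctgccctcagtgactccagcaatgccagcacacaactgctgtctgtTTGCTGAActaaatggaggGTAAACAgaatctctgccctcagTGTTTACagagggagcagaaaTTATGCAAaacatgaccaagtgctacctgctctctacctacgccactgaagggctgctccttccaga
Hpx promoter, liver-only, with C/EBP letters, chr7:105600067-105600366: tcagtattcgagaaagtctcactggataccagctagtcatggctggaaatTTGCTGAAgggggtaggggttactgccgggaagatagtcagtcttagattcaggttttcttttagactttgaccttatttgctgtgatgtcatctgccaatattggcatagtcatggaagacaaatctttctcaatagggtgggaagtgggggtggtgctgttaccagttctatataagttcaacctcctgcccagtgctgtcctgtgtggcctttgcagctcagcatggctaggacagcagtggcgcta
The first pair are the highest regions of their class within 50 kb of a gene on the tissue lists below, 1 for each organ, and of these the Hao1 region held no searched motif and the Grhl2 region SP/KLF letters alone. The others were picked after the motif shares were known. The distal ones came from 2 candidate regions with HNF1 letters and 17 with C/EBP letters. The Hpx promoter came from 14 liver-only promoters of liver list genes, of which 5 held C/EBP letters. The motifs of these sequences are thus an illustration and not a test.

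The Grhl2 intron region had fold enrichments over the local background of 8.39, 8.04 and 5.66 in the kidney libraries. Grhl2, an epithelial transcription factor of the collecting duct, had 8.35 ± 2.27 CPM (SD, n = 4) in kidney and 0.337 ± 0.116 in liver. The Hao1 region had enrichments of 15.28, 6.97 and 7.76 in the liver libraries. Hao1 encodes a peroxisomal glycolate oxidase, with 242 ± 54.1 CPM in liver and 0.0229 ± 0.0458 in kidney (n = 4 each). The region near Hp, the gene of the haemoglobin scavenger haptoglobin, had enrichments of 5.86, 4.25 and 3.69 in liver and holds 2 C/EBP and 2 FOXA matches.

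Regions without a tissue gene nearby could be higher still. The highest kidney-only distal region, chr4:114256676-114257389 of GRCm38, had enrichments of 24.24, 18.79 and 12.77 in the kidney libraries and lay 93.8 kb from Skint11, a gene with no read in either organ. The highest liver-only region, chr10:3706216-3706796, had 13.68, 13.93 and 15.25 in the liver libraries and lay 34.0 kb from Plekhg1. A region in an intron of Exoc6b, chr6:84841064-84841674, had 15.18, 12.35 and 12.52 in liver. The RNA of Exoc6b went the other way, with 19.6 ± 1.19 CPM in kidney and 8.65 ± 1.71 in liver (log2 fold change 1.18 ± 0.17 SE).

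The kidney libraries held 115836, 128395 and 124753 peaks and the liver libraries 130338, 123776 and 130409. The ranges overlapped, and the mean of kidney was 122995 ± 6462 and of liver 128174 ± 3809 (SD, n = 3 each; two-sided exact permutation p = 0.3, where 0.1 is the smallest that 3 against 3 can give). Once peaks under a −log10 q of 5 were left out the order turned, with 65207, 61287 and 52968 in kidney and 48331, 43550 and 43297 in liver (exact permutation p = 0.1). The peak lists give no read totals, so the depth of each ATAC library is unknown here.

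Promoter peaks, with a summit within 1 kb of a start site, took a larger share in kidney. The shares were 16.3%, 15.3% and 16.2% in the kidney libraries and 14.4%, 15.05% and 14.4% in the liver libraries, so that the ranges did not overlap (16.0% ± 0.57 against 14.6% ± 0.38, SD, n = 3 each; exact permutation p = 0.1). With the stricter q the difference turned to −1.94 percentage points (exact permutation p = 0.3). Peaks over 100 kb from any start site took 9.38%, 11.9% and 13.8% in kidney and 21.7%, 15.8% and 17.5% in liver (exact permutation p = 0.1). The median fold enrichment of promoter peaks was 5.45, 5.26 and 4.5 in kidney and 4.12, 3.77 and 3.8 in liver, and that of distal peaks 3.12 ± 0.27 and 2.83 ± 0.16. Promoter peaks were thus the higher ones in both organs.

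**Figure D1:**
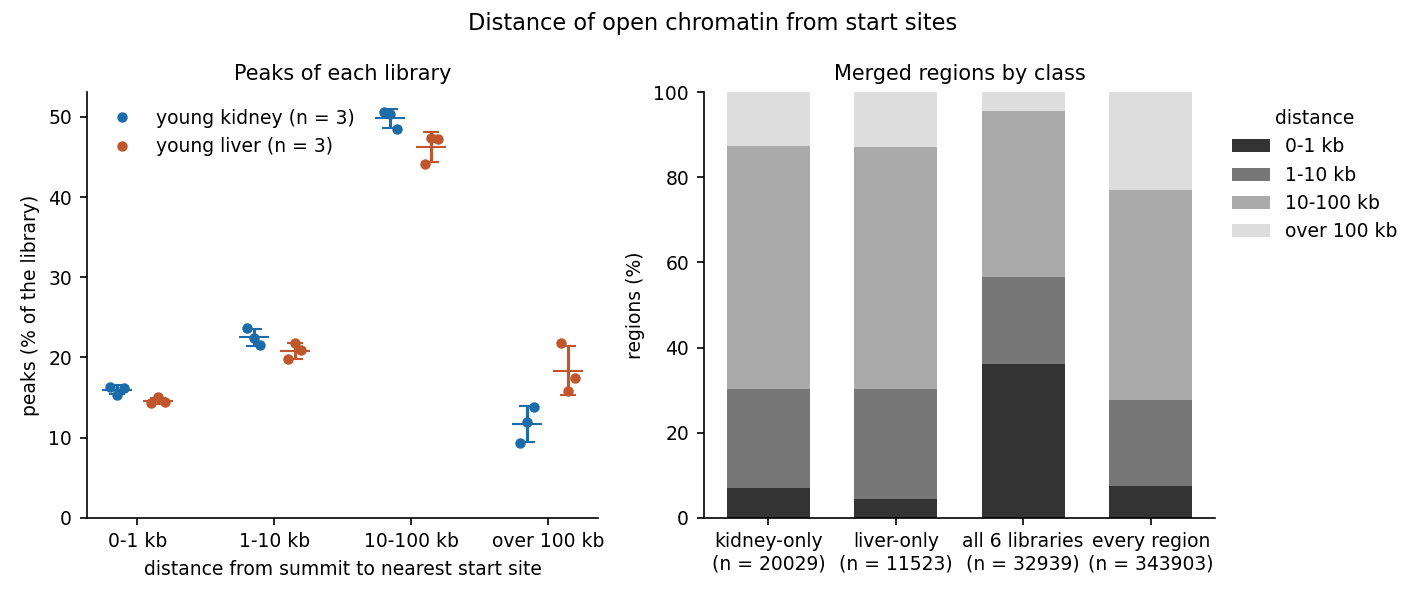
Share of peaks by distance of the summit to the nearest start site (horizontal axis) in percent of each library's peaks (vertical axis). Bars are means of 3 libraries, points are libraries and error bars are SD. Kidney libraries lie above liver libraries within 1 kb and at 10 to 100 kb, and below them over 100 kb.

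Of the 343903 regions, 20029 were kidney-only (5.82%), 11523 liver-only (3.35%) and 32939 open in all 6 libraries (9.58%). Most of the others rested on single libraries, 76865 on 1 kidney library and 122208 on 1 liver library. A pair of kidney libraries shared 44.7% to 50.1% of their joint regions, a pair of liver libraries 34.5% to 35.5%, and a kidney and a liver library 24.4% to 27.0%. Without any one liver library the liver-only regions numbered 17016 to 17822, where the class asks for a peak in fewer liver libraries. With the stricter q 13300 regions were kidney-only and 5343 liver-only. Promoters made up 36.1% of the regions open in all 6 libraries, 6.97% of the kidney-only regions, near the 7.45% of every region, and 4.47% of the liver-only regions. The kidney-only share was 10.89% with the stricter q, and the liver-only share 2.93% and 8.44% with promoter windows of 500 bp and 2 kb. The share at 10 to 100 kb from a start site was 57.0% and 56.8% in the organ-only classes, 39.0% in the regions open throughout and 49.5% in every region. Distal windows of the kidney-only class averaged 49.5% GC, those of the liver-only class 47.8%.

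The libraries of old mice, which had no part in these classes, showed the same direction. A peak of an old kidney library covered 70.2% ± 1.84 of the kidney-only regions and a peak of an old liver library 9.45% ± 2.0 (SD, n = 3 each). Of the liver-only regions, 57.1% ± 6.81 had a peak in old liver libraries and 7.95% ± 2.22 in old kidney libraries. Over every region the shares were 23.5% and 23.7%. Of the kidney-only regions 7831 were kidney-only among the 6 old libraries too (39.1%), 18 were liver-only there, 49.7% had peaks in another combination of old libraries short of all 6, and 9.93% had none. Of the liver-only regions 2593 were liver-only again (22.5%), 2 were kidney-only, 59.5% had peaks in another combination and 16.8% had none.

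At the level of genes, 744 of 24534 promoters were kidney-only (3.03%), 242 liver-only (0.986%) and 12616 open in all 6 libraries, while 6480 had no peak in any library. A promoter here spans 1 kb on either side of any start site of the gene. Its enrichment in a library is that of the highest peak there, so libraries can take it from different start sites. Among the kidney-only promoters 428 genes passed the filter on low RNA counts, and 375 of them were higher in kidney RNA and 11 in liver RNA (edgeR, adjusted p under 0.05 and fold above 2). Among the liver-only promoters 149 genes passed, 136 of them higher in liver RNA and 3 in kidney RNA. The background over 14057 genes tested was 25.7% higher in kidney and 16.9%, or 2369 genes, higher in liver, which an adjusted p alone raised to 4246. The median log2 fold change, kidney minus liver, was 5.64 at kidney-only and −10.40 at liver-only promoters, and 5.24 and −9.62 with genes that had no read in one organ at their lower bound. With the stricter q the kidney-only median was 2.91. Genes that pass the filter through one organ alone had to differ, so these counts, and the RNA counts of the gene lists that follow, do not stand for every member. Of the kidney-only promoters, 356 belonged to genes under 1 CPM in kidney, and 96 of the liver-only promoters to genes under 1 CPM in liver.

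At promoters the old libraries repeated the classes in part. Of the 744 kidney-only promoters, 385 had peaks in another combination of the old libraries (51.7%), 299 were kidney-only again (40.2%), 2 were liver-only, 29 were open in all 6 old libraries and 29 had no peak there. Of the 242 liver-only promoters, 142 had peaks in another combination of the old libraries (58.7%), 67 were liver-only again (27.7%), 0 were kidney-only, 7 were open in all 6 libraries and 26 had no peak (10.7%).

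An open promoter went with transcription in each organ. Of protein-coding genes without a read in kidney, 5.9% of 4303 had a promoter peak in all 3 kidney libraries, and of those at 1 to 10 CPM per kilobase of exon 94.0% of 6591 did. In liver the shares were 7.2% of 5629 and 90.6% of 5438. Above 100 CPM per kilobase the share was 95.4% of 519 genes in kidney and 87.6% of 878 in liver, and the median fold enrichment of the open ones was 5.96 and 3.83, below the 7.12 and 5.11 of genes at 1 to 10. Across 16652 genes the Spearman correlation of promoter enrichment and RNA level was 0.41 in kidney and 0.40 in liver. These correlations describe genes, which do not stand for replicates, and come without a p.

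The proximal tubule list holds transporters and enzymes of the segment that recovers most of the filtrate. Of its 15 genes, 7 had a kidney-only promoter, 0 a liver-only one, and 14 were higher in kidney RNA. For Slc34a1, the sodium-phosphate cotransporter of the brush border, promoter enrichments were 4.7, 1.97 and 2.19 in kidney with no peak in liver. Its RNA was 3177, 2900, 2616 and 3204 CPM in kidney and 0 in each liver library, at least 87000-fold higher against a floor of 3 counts over the liver libraries (edgeR adjusted p = 4.95e-10). For Lrp2, which encodes the endocytic receptor megalin, enrichments were 6.44, 4.05 and 3.47 in kidney with no peak in liver. The exception was Slc27a2, a very long-chain fatty acid ligase of both organs. Its promoter was open in all 6 libraries, with 2.88, 3.46 and 4.23 in kidney and 4.15, 4.04 and 3.62 in liver, and its RNA was 2312 ± 297 CPM in kidney and 1794 ± 597 in liver (edgeR adjusted p = 0.174).

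In the loop and distal tubule 5 of 11 promoters were kidney-only and all 11 genes were higher in kidney RNA. For Kcnj1, the potassium channel ROMK, promoter enrichments were 6.3, 7.25 and 5.2 in kidney with no peak in liver. For Slc12a1, the sodium-potassium-chloride cotransporter of the thick ascending limb, they were 3.44, 4.24 and 4.1, again with no peak in liver. Umod, which encodes uromodulin, missed the class by 1 liver library, with 6.4, 4.5 and 5.19 in kidney and 2.06, 0 and 0 in liver. Other promoters were open in both organs or in neither. That of Egf, an epidermal growth factor made in the distal tubule, had 5.28, 4.91 and 5.6 in kidney and 6.43, 6.37 and 4.68 in liver, at 1947 ± 147 CPM in kidney and 0.369 ± 0.32 in liver. Slc12a3, the thiazide-sensitive sodium-chloride cotransporter, had no promoter peak in any library and 540 ± 45.5 CPM in kidney.

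In the collecting duct 3 of 11 promoters were kidney-only and 10 genes were higher in kidney RNA, the other being the proton pump subunit gene Atp6v0d2 (36.9 ± 1.38 against 27.9 ± 8.65 CPM, adjusted p = 0.0895). The promoter of Aqp2, the water channel under vasopressin control, had 0, 1.94 and 2.05 in kidney and no peak in liver, at 216 ± 60.1 CPM in kidney and 0 in liver. That of Scnn1g, a subunit of the epithelial sodium channel, was open in both organs. It had 10.9, 12.7 and 10.6 in kidney and 11.8, 13.97 and 15.2 in liver, while its RNA was 37.9 ± 3.95 CPM in kidney and 0 in liver. Among 6 podocyte genes only Wt1, which encodes a zinc-finger factor of these cells, had a kidney-only promoter. The slit diaphragm gene Nphs1 had no promoter peak in any library at 30.8 ± 4.92 CPM in kidney. In whole organs, fewer cells of a type cannot be told apart from less signal per cell.

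Of 12 kidney transcription factor genes, 3 had a kidney-only promoter, 4 had one open in all 6 libraries, and all 12 were higher in kidney RNA. Pax8, a paired-box factor of the nephron, had promoter enrichments of 3.79, 3.94 and 2.49 in kidney with no peak in liver. Its RNA was 47.2, 45.2, 49.9 and 46.2 CPM in kidney and 0 in each liver library. Gata3, a factor of the collecting duct, had 5.78, 5.04 and 4.76 in kidney and 10.23, 8.3 and 9.69 in liver. Its RNA was 16.1, 10.7, 10.8 and 8.76 CPM in kidney and 0 in liver. Its promoter peak was thus higher in the organ without its RNA, a direction that turned when the window was cut to 500 bp on either side (log2 difference 0.87, limma adjusted p = 0.266).

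In the liver lists, 8 of 20 genes of secreted proteins and 6 of 16 genes of metabolism had a liver-only promoter, none a kidney-only one, and all were higher in liver RNA. Ahsg, the gene of the plasma protein fetuin-A, had promoter enrichments of 2.31, 2.43 and 2.08 in liver and no peak in kidney, at 15372 ± 3520 and 0.0769 ± 0.089 CPM. Hpx, which encodes the haem carrier hemopexin, had 4.17, 4.05 and 3.47 in liver and no peak in kidney. Cyp7a1, the rate-limiting enzyme of bile acid synthesis, had 3.26, 3.12 and 3.38 in liver and no peak in kidney. Its RNA was 139, 186, 156 and 45.8 CPM in liver and 0 in each kidney library, at least 3170-fold higher in liver. High RNA did not need a promoter peak, however. Alb, the gene of serum albumin, had no promoter peak in any of the 6 libraries, and its RNA was 145030, 141010, 184050 and 233270 CPM in liver and 7.02, 10.27, 10.53 and 10.82 in kidney. For Cps1, which starts the urea cycle, the promoter had 0, 3.21 and 2.76 in liver and no peak in kidney, at 6211 ± 2128 CPM in liver.

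Fga, a fibrinogen chain gene picked out after its values were seen, went against its RNA. Its promoter enrichment was 10.9, 9.73 and 10.4 in kidney and 2.71, 2.61 and 3.47 in liver (limma adjusted p = 0.00154), and its RNA was 30.4 ± 7.58 CPM in kidney and 8398 ± 1211 in liver. Fga and Foxa3 were the liver list genes, 2 of 42 tested, with a promoter called higher in kidney, and Scnn1g and Gata3 were among 3 of 42 kidney list genes tested with one called higher in liver. In the matching direction 21 kidney list genes and 15 liver list genes were called, beside a background of 9.25% of 15670 promoters called higher in kidney and 7.26% higher in liver. Of these, 19 of the 21 and 14 of the 15 were organ-only promoters, which entered the fit through one organ alone with the other set to 0, so that their call restates the class. The 12 liver transcription factor genes had no organ-only promoter, and 8 were open in all 6 libraries. For Cebpa, which encodes C/EBP alpha, enrichments were 6.11, 5.78 and 5.47 in kidney and 3.19, 3.02 and 2.94 in liver, at 60.1 ± 4.49 and 484 ± 21.1 CPM. After scaling for the higher enrichments of kidney libraries this difference was not past the threshold (limma adjusted p = 0.109).

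**Figure D2:**
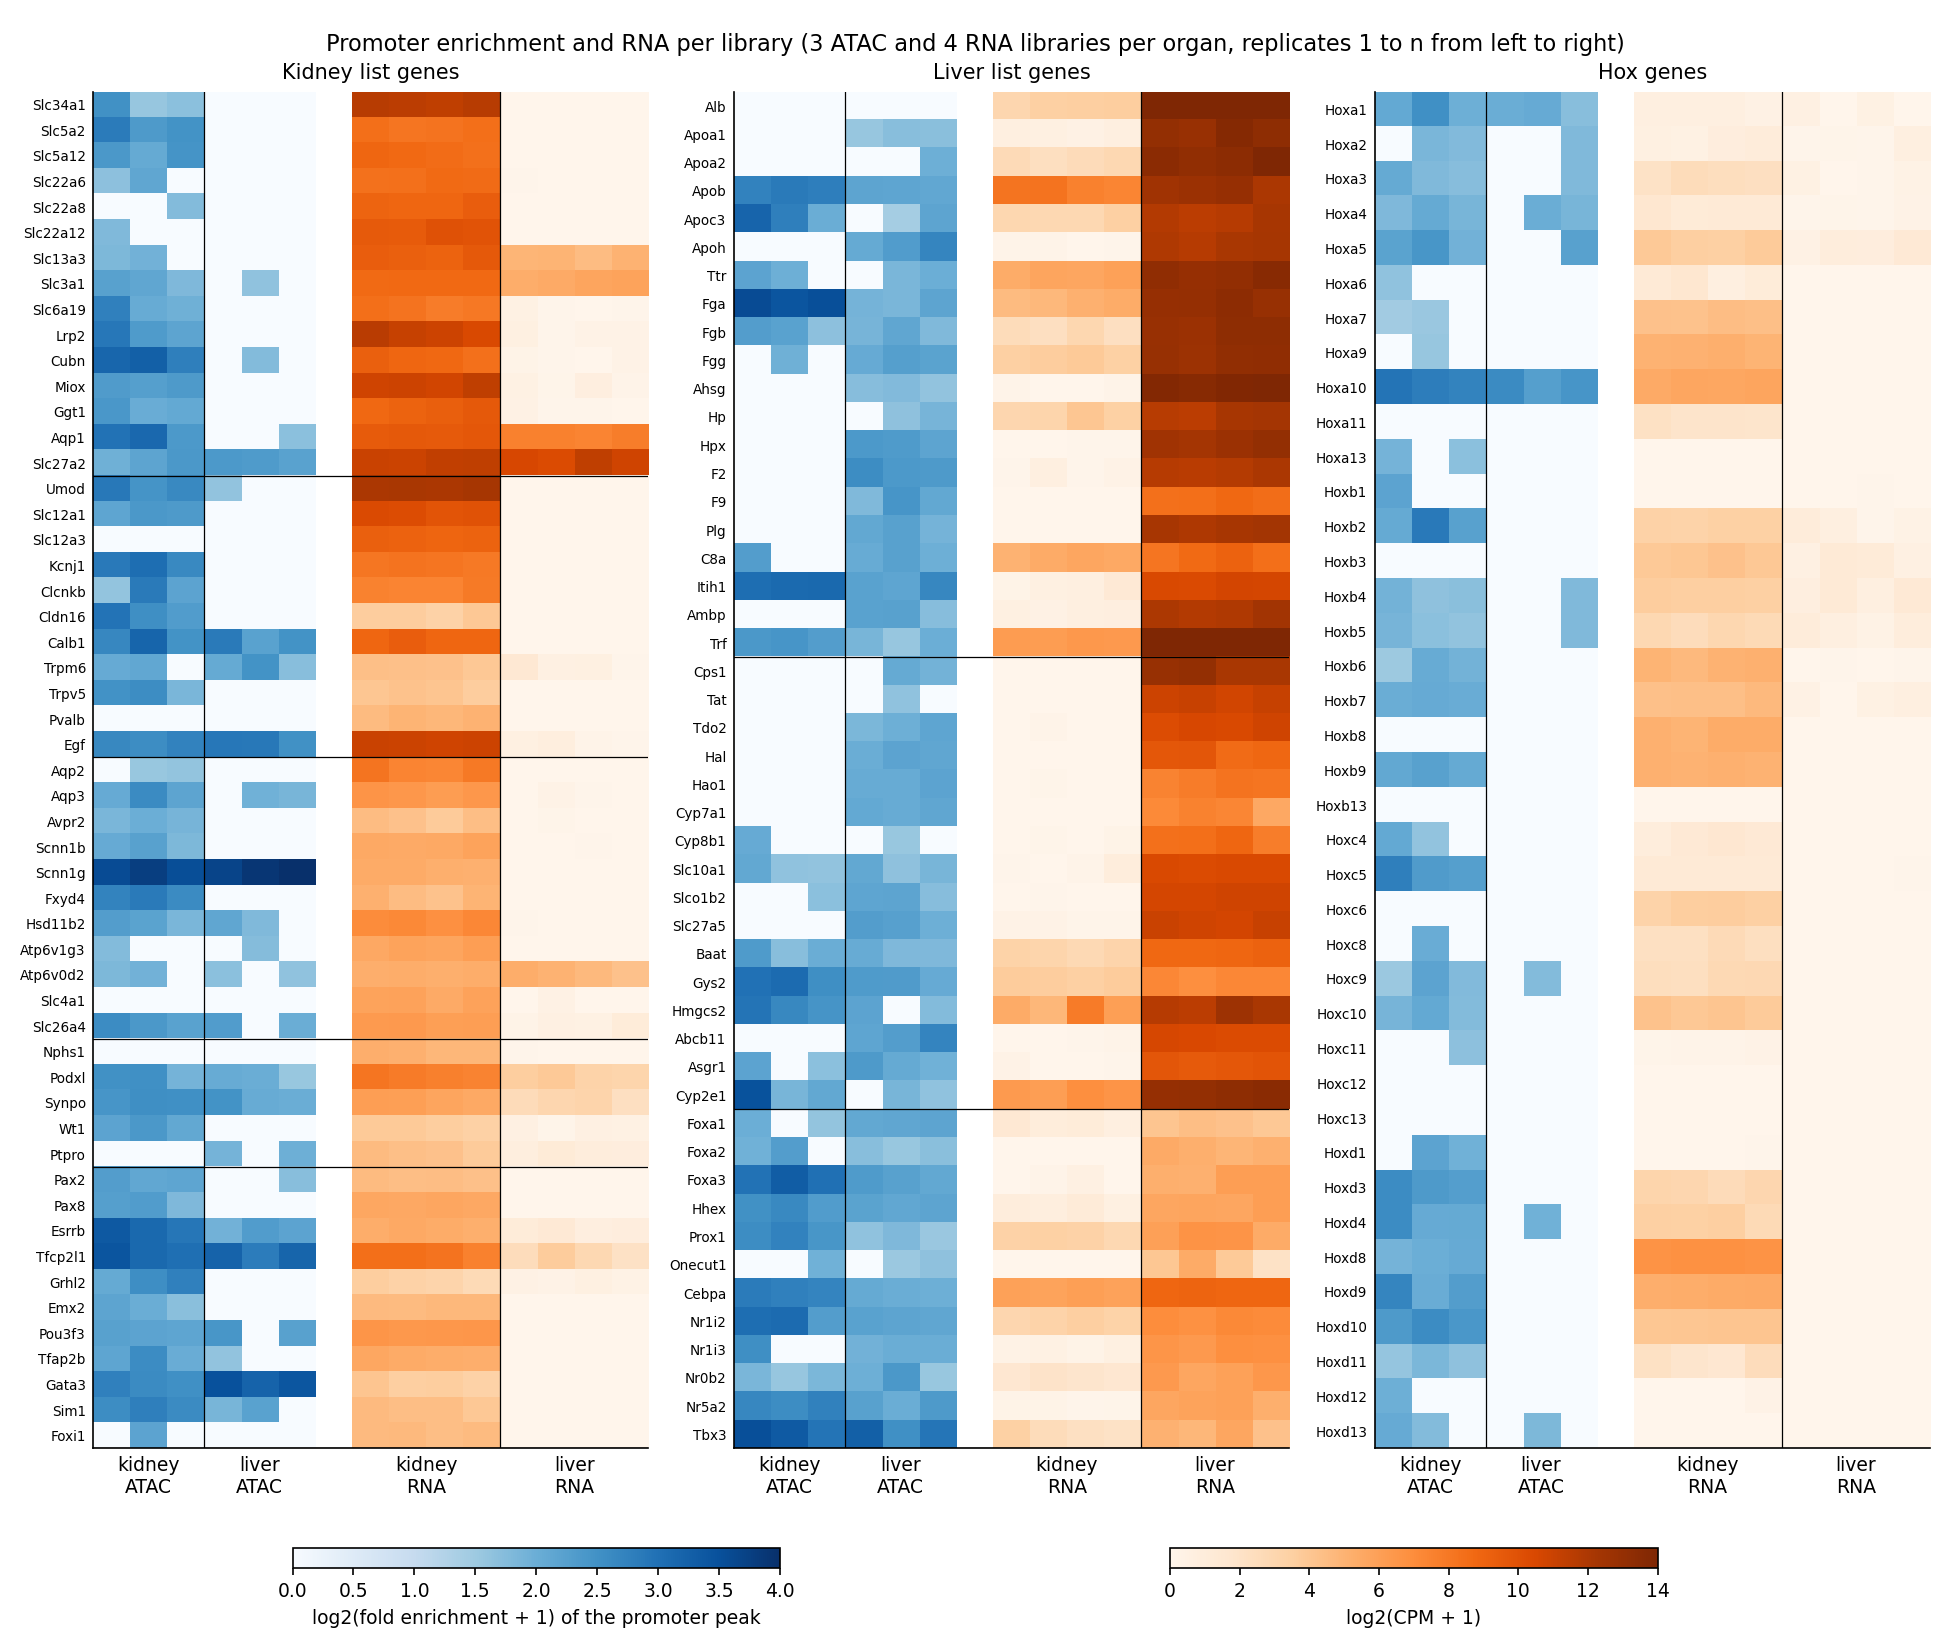
Each row is a list gene shown here and each column a library, with promoter enrichment as log2(fold enrichment + 1) in blue (0 to 4) and RNA as log2(CPM + 1) in orange, where values above 14 take the colour of 14. The 19 kidney-only promoters of kidney list genes are blue in the kidney columns and white in the liver columns, Egf, Scnn1g, Gata3, Slc27a2 and Hoxa10 are blue in both, and Slc12a3 and Nphs1 are white throughout. Of the 12 liver transcription factor genes at the foot of the middle panel, 8 are blue in all 6 columns.

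In all, 19 of 55 kidney list genes had a kidney-only promoter, beside 3.03% of all promoters, and 14 of 48 liver list genes a liver-only one, beside 0.986%. The liver number was 8 with the stricter q and 9 with an equal number of top peaks per library. The wider loci, gene bodies with 10 kb on either side, take in the promoter as well as regions away from it. Promoter regions are thus among the counts that follow, and a region is counted at each neighbour whose locus it meets. At kidney list genes 106 kidney-only and 15 liver-only regions lay in these loci, and 37 of 55 genes had more kidney-only than liver-only ones, 2 the reverse. At liver list genes there were 108 liver-only and 6 kidney-only regions, with 43 of 48 genes on the liver side and Cebpa alone on the kidney side. Over 20625 protein-coding genes 28.1% had more kidney-only and 15% more liver-only regions. The liver factor genes, without an organ-only promoter, had 27 liver-only and 2 kidney-only regions. Nr5a2, which encodes the nuclear receptor LRH-1, held 11 of these liver-only regions with an open promoter in all 6 libraries (5.36, 4.93 and 5.68 in kidney, 3.7, 3.04 and 4.13 in liver), and its RNA was 49.8 ± 10.6 CPM in liver and 0.124 ± 0.0697 in kidney. Cps1 held 8 liver-only regions and Cyp7a1 5, with no kidney-only region at either.

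Genes shared by the organs looked different. Of 14 genes of metabolism used by both, 10 had a promoter open in all 6 libraries and none an organ-only one. Pck1, the gluconeogenic carboxykinase, had 2986 ± 567 CPM in kidney and 3379 ± 345 in liver (edgeR adjusted p = 0.416). Gatm, the first enzyme of creatine synthesis, was open in all 6 libraries too, yet its RNA was 1085 ± 109 CPM in kidney and 17.2 ± 4.23 in liver (adjusted p = 4.67e-10). Among 15 genes that every cell uses 14 promoters were open in all 6 libraries. Of 12 genes of other organs 9 had no promoter peak, and the insulin gene Ins2 was open in all 6 libraries with at most 0.0366 CPM in any of the 8 RNA libraries. Any start site counts and the annotated gene spans chr7:142678656-142743381, so its peak need not lie at the start of the insulin transcript. In the old libraries Ins2 had no promoter peak in kidney, and 3.68, 4.71 and 0 in liver.

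Hox genes, which set position along the body axis and stay on in the kidney, had kidney-only but no liver-only promoters. They were taken up after results of these data were known, so the counts are a description. Of 39 Hox genes, 11 had a kidney-only promoter, beside 3.03% of all promoters, and 0 a liver-only one, beside 0.986%, while 2 were open in all 6 libraries and 7 in none. The 29 that passed the RNA filter were higher in kidney, beside 25.7% of genes tested, but most had few or no reads in liver and passed through kidney alone, which set their direction. Hoxd8 had promoter enrichments of 2.73, 2.96 and 3.17 in kidney with no peak in liver, and RNA of 101, 106, 106 and 101 CPM in kidney and 0 in each liver library. Hoxa10 was open in both organs, with 6.72, 5.95 and 5.56 in kidney and 5.06, 3.8 and 4.41 in liver, at 48.1 ± 4 CPM in kidney and 0 in liver. Loci of Hox genes held 101 kidney-only and 5 liver-only regions, where a region is counted at each neighbour whose locus it meets. On balance 32 of the 39 genes had more kidney-only regions and 0 more liver-only ones, beside the 28.1% and 15% of protein-coding genes.

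Other cells of the organs differed in RNA. The summed CPM of 6 macrophage markers was 69.4 to 91.5 in the kidney libraries and 360.8 to 572.5 in the liver libraries, and of 4 Kupffer cell markers at most 0.2 in kidney and 482.1 to 809.0 in liver. All 6 macrophage and all 4 Kupffer cell markers were higher in liver, beside 16.9% of genes tested, and the Kupffer cell markers passed the filter through liver alone. The macrophage list had no organ-only promoter, and of the Kupffer cell list Cd5l, a secreted protein of tissue macrophages, had a liver-only one (3.25, 2.53 and 3.58). For stroma and stellate cells the sums were 118.4 to 132.1 in kidney and 434.3 to 665.1 in liver. The list was not of one direction, with 4 of its 6 genes higher in liver RNA and Pdgfrb and Col1a1, genes of a growth factor receptor and a collagen, higher in kidney (30.9 ± 3.82 against 10.02 ± 2.22 and 30.1 ± 4.65 against 10.6 ± 5.05 CPM). Dcn made up most of the liver sum. Dcn and Colec11, genes of a matrix proteoglycan and a collectin, had kidney-only promoters while their RNA was 56.5 ± 8.47 and 1.06 ± 0.33 CPM in kidney and 347 ± 79.8 and 75.9 ± 9.18 in liver. Sums of 8 general endothelial markers overlapped, at 312.7 to 419.5 in kidney and 283.7 to 328.1 in liver, while those of 4 markers of liver sinusoid endothelium were 9.6 to 18 in kidney and 273.3 to 354.8 in liver. All 4 of the latter were higher in liver RNA, and Lyve1, a hyaluronan receptor, had a liver-only promoter. Sums of 4 bile duct markers, which kidney epithelia also express, were 1373.6 to 1540.3 in kidney and 60.9 to 131.5 in liver, with 2 genes higher in kidney and Sox9, a factor of duct cells, higher in liver. Spp1, the gene of osteopontin, made up most of both sums (1337 CPM in kidney and 79.1 in liver). Those of 4 lymphocyte markers were 6.6 to 9.2 and 16.0 to 20.4. The part of these cells in the differences between organs was not tested.

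Promoter enrichment itself was compared over 15670 promoters with a peak in at least 3 of 6 libraries, after scaling each library to the same median at promoters open throughout. By limma 1450 were higher in kidney and 1138 in liver (adjusted p under 0.05). These counts rest on single libraries. Without any one kidney library 81 to 170 promoters were called higher in kidney and 287 to 450 in liver, and without a liver library 1389 to 1550 and 540 to 691. With the stricter q 674 were higher in liver. Which organ had more also turned with the setting, at 899 in kidney and 1333 in liver among promoters with a peak in all 6 libraries, and 1270 and 1312 with quantile scaling. Without scaling the counts were 6553 and 402, beside the higher median enrichment of promoter peaks in kidney given above. Where a library had no peak the enrichment was set to 0, which is not a measured level, and the call of an organ-only promoter restates its class.

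The genes at the top of both fits with matching directions were kidney-only or liver-only promoters. Kif12, a kinesin gene, had promoter enrichments of 8.79, 8.65 and 7.31 in kidney and no peak in liver, with 82.1 ± 14.1 and 0.298 ± 0.186 CPM. Ush1c, which encodes the brush border scaffold harmonin, had 10.58, 9.53 and 8.04 in kidney and no peak in liver, with 77.2 ± 14.9 and 0.0365 ± 0.0422 CPM. The other 3 of the 5 leading on the kidney side were ccdc198, Armh4 and Il17re. On the liver side C8b, a chain of complement component C8, had 6.48, 6.43 and 7.8 in liver and no peak in kidney, with 333 ± 93.4 CPM in liver and 0 in kidney. Beside it stood the phospholipase gene Pla2g12b, the fatty acid binding protein gene Fabp2, Mmp19 and Il1rn, all with no peak in kidney.

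Opposite directions occurred as well. Hgfac, the activator of hepatocyte growth factor, had promoter enrichments of 12.69, 12.2 and 9.99 in kidney and 4.43, 3.81 and 3.23 in liver (log2 difference 0.96 ± 0.10 SE, limma adjusted p = 0.000683), and its RNA was 11.6 ± 3.45 CPM in kidney and 333 ± 39.0 in liver. Selenoi, Rapgef4, Lrit2 and Sec14l2 were the others of the 5 leading with a promoter higher in kidney and RNA higher in liver, and for Sec14l2 a window of 2 kb left a log2 difference of 0.07 (adjusted p = 0.75). Ezr, which links the brush border to actin, had enrichments of 2.93, 3.28 and 3.54 in kidney and 7.98, 7.46 and 6.67 in liver (log2 difference −1.40 ± 0.14 SE, limma adjusted p = 0.000629). Its RNA was 381, 406, 416 and 395 CPM in kidney and 10.7, 7.52, 11.4 and 6.38 in liver. Pkd2, the cation channel polycystin-2, had 8.09, 7.54 and 7.64 in kidney and 11.5, 10.8 and 11.1 in liver, with 149 ± 29.2 and 19.5 ± 3.22 CPM. Trabd2b and Dmrt2 went the same way. Dmrt2 lost its promoter call without any one kidney ATAC library (limma adjusted p = 0.0547 to 0.0683), and with a window of 500 bp the promoter of Trabd2b was higher in kidney instead (log2 difference 1.68, adjusted p = 0.0109).

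Such opposite pairs were the more frequent kind among promoters open in all 6 libraries. The calls here are those of the fit over 15670 promoters, for genes that were also tested in RNA. They compare the highest peak within 1 kb of any start site, which need not be the same start site in both organs. Of 604 called higher in kidney there, 82 were higher in kidney RNA (13.6%) and 184 in liver RNA (30.5%). Of 677 called higher in liver, 276 were higher in kidney RNA (40.8%) and 100 in liver RNA (14.8%). Promoters with no call had 19.1% and 13.4%. The median RNA log2 fold change was −0.51 for the first group and 0.63 for the second. Across 11249 genes the promoter and RNA differences had a Pearson correlation of −0.14 and a Spearman correlation of −0.20, and −0.15 to −0.17 in each of the 9 pairs of a kidney and a liver library. Over the 13003 genes with a peak in at least 3 libraries the values were 0.47 and 0.06, where the organ-only promoters enter. That Spearman value turned to −0.02 without any one kidney ATAC library, where the kidney-only promoters dropped out of the fit by the rule given above. Over the promoters open in all 6 libraries the Spearman value was −0.21 with quantile scaling, and −0.13 between the promoter differences of the old libraries and the young RNA differences (11265 genes). Within 5 bins of promoters by GC content it ran from −0.10 to −0.26, and within 5 bins by mean enrichment from −0.12 to −0.30.

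**Figure D3:**
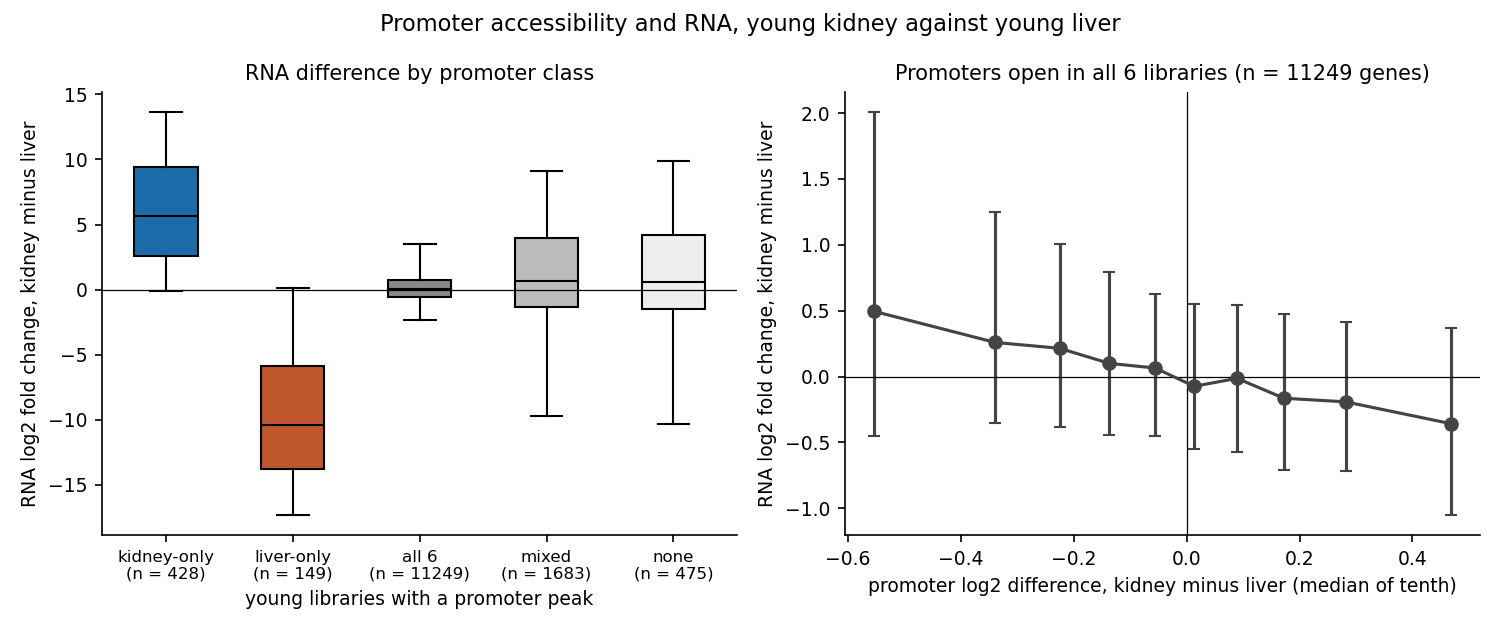
RNA log2 fold change, kidney minus liver, by promoter class (left) and by the promoter difference in 10 bins of promoters open in all 6 libraries (right). In the left panel the kidney-only class has a median of 5.64 and the liver-only class of −10.40. In the right panel the median goes from 0.50 in the bin with the lowest kidney enrichment relative to liver to −0.36 in the bin with the highest. Boxes span the quartiles with the median as a line and whiskers the 5th to 95th percentile, and on the right bars span the quartiles.

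Genes with a surplus of distal regions open in one organ only were more often higher in the RNA of that organ. Each distal region was given to the protein-coding gene with the nearest start site within 50 kb. Among 1629 genes tested with at least 2 more kidney-only than liver-only distal regions, 56.5% were higher in kidney RNA and 5.40% in liver RNA, with a median log2 fold change of 1.42. Among 740 with at least 2 more liver-only ones, 50.7% were higher in liver RNA and 7.43% in kidney RNA, with a median of −1.03. Over 13478 protein-coding genes the shares were 25.6% and 16.8% and the median 0.07. With a surplus of 5 or more kidney-only regions 83.4% of 175 genes were higher in kidney RNA, and with 5 or more liver-only ones 84.8% of 46 in liver RNA. The balance of distal regions and the RNA difference had a Pearson correlation of 0.35 and a Spearman correlation of 0.36.

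The same held where the promoter was open in all 6 libraries. Of 1236 such genes with at least 2 more kidney-only distal regions, 48.3% were higher in kidney RNA and 5.99% in liver RNA, with a median promoter log2 difference of −0.14. Of 606 with at least 2 more liver-only ones, 45% were higher in liver RNA and 6.27% in kidney RNA, with a median promoter difference of 0.09. Over the 10916 genes with such promoters 19.9% were higher in kidney RNA and 14.4% in liver RNA, and the median promoter difference was −0.02. Ezr and Trabd2b were of this kind, with 4 and 8 more kidney-only than liver-only distal regions beside a promoter called higher in liver.

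**Figure D4:**
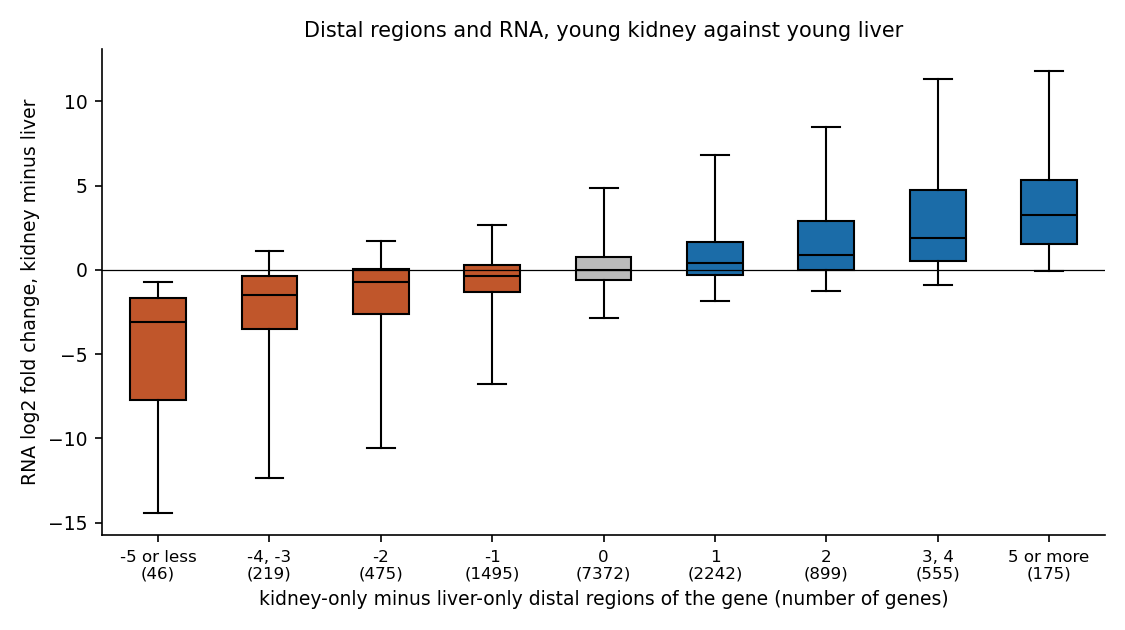
RNA log2 fold change, kidney minus liver, by the number of kidney-only minus liver-only distal regions given to a gene. Boxes span the quartiles with the median as a line and whiskers the 5th to 95th percentile, and the number of genes stands under each. The median goes from −3.09 at 5 or more liver-only regions to 3.23 at 5 or more kidney-only ones.

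Motif letters within 100 bp of the summit were counted in the 20000 distal peaks of highest fold enrichment in each library. HNF1 letters stood in 4.18%, 3.78% and 3.50% of kidney peaks and 1.76%, 1.98% and 1.94% of liver peaks, a ratio of the means of 2.02. TEAD letters (CATTCCA) stood in 5.45%, 5.68% and 5.45% in kidney and 3.20%, 3.40% and 3.50% in liver. In the reverse direction C/EBP letters stood in 8.97%, 8.98% and 8.62% of kidney and 12.1%, 12.2% and 12.1% of liver peaks, and FOXA letters in 3.52%, 3.58% and 3.49% and 5.54%, 5.96% and 5.53%. The CTCF motif, of an insulator protein, stood in 9.63% ± 0.82 in kidney and 12.4% ± 0.28 in liver. The organs did not overlap for any of the 14 motifs searched, with an exact permutation p of 0.1 for each and 0.1 after adjustment over the 14, the smallest that 3 against 3 can give. The windows averaged 50.5% to 50.9% GC in kidney and 49.8% to 50.1% in liver. Of the 5000 highest peaks, 9 of 14 motifs did not overlap.

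Further motifs higher in kidney were HNF4 (CAAAGTCCA, 1.90% against 1.44%), HOX9-11 (2.13% against 1.66%), ESRR (TCAAGGTCA, 0.54% against 0.36%), SP/KLF (8.39% against 7.05%) and AP-1 (TGANTCA, 8.07% against 7.62%). So were PAX (GCGTGAC, 0.80% against 0.65%), ETS (CCGGAAG, 1.67% against 1.33%) and GRHL (AACCGGTT, 0.11% against 0.07%). The order was the same in organ-only distal regions for the motifs searched except AP-1, which stood in 8.78% of both classes. HNF1 letters stood in 3.75% of kidney-only and 1.21% of liver-only regions, against 1.12% of every distal region. C/EBP letters stood in 17.8% of liver-only and 8.72% of kidney-only regions, against 9.03% of every distal region. FOXA letters stood in 8.38% and 3.27%, against 3.45%. The CTCF motif stood in 0.58% of kidney-only and 0.86% of liver-only regions, and in 13% of distal regions open in all 6 libraries. In the old libraries HNF1 stood in 3.58% of kidney and 0.87% of liver peaks, TEAD in 5.84% and 3.09% and C/EBP in 9.59% and 11.1%, without overlap, while FOXA (3.70% and 4.11%), DR1, GRHL and ETS overlapped.

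**Figure D5:**
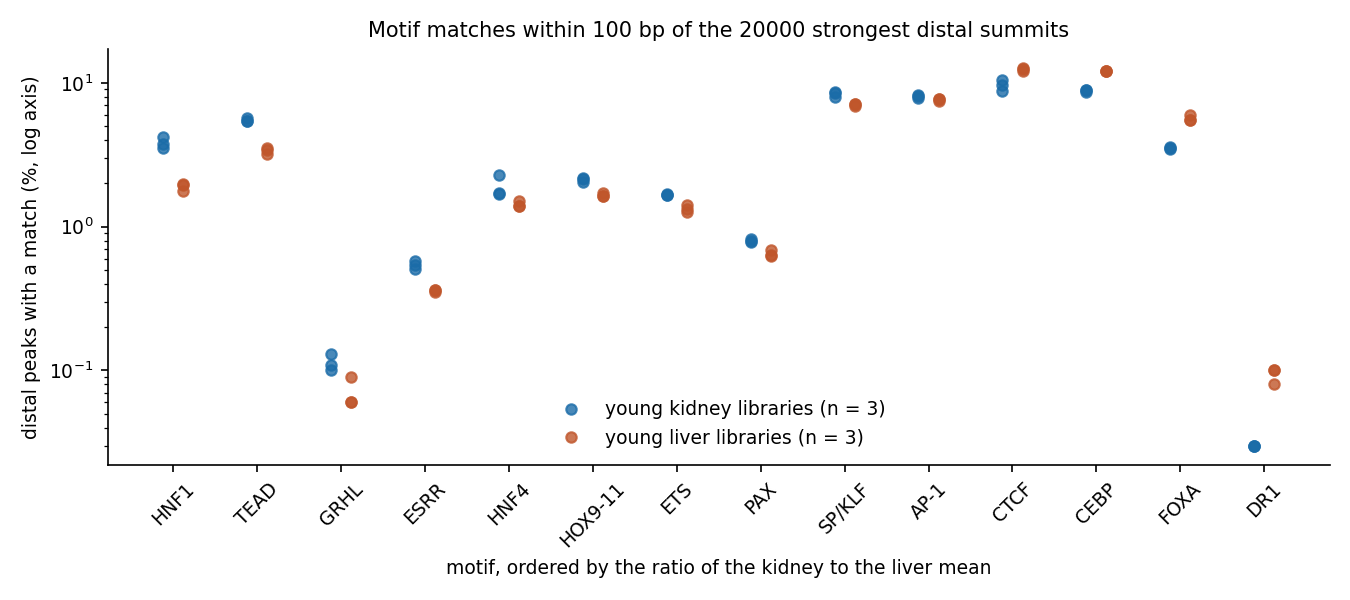
Share of the 20000 highest distal peaks of each library that hold the letters of a motif, in percent on a log axis. Points are libraries, and motifs run from the highest to the lowest ratio of kidney to liver. HNF1 and TEAD lie higher in kidney, C/EBP, FOXA and CTCF higher in liver, and the libraries of an organ lie close together.

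Promoter sequences from RefSeq, 250 bases before to 50 after the start, were found for 520 kidney-only and 178 liver-only promoters. C/EBP letters stood in 32.0% of the liver-only, 10.4% of the kidney-only and 11.5% of all 18009 promoters matched. SP/KLF letters stood in 8.99% of the liver-only, 45.2% of the kidney-only and 69.7% of the promoters open in all 6 libraries, against 49.2% of all promoters matched. Of the motifs higher in kidney at distal peaks, PAX, HOX9-11, TEAD, ETS and SP/KLF stood in a larger share of kidney-only than of liver-only promoters. The reverse held for HNF1, AP-1, HNF4 (0.56% of liver-only and 0.38% of kidney-only), ESRR (1.12% and 0.96%) and GRHL (0.56% and 0%). Apart from AP-1, these reversed shares rest on a few promoters each, too few to set the classes apart. HNF1 letters stood in 2.25% of liver-only and 0.96% of kidney-only promoters (0.84% of all) and AP-1 letters in 15.7% and 9.04% (8.36% of all). FOXA letters stood in 4.49% and 4.23% (3.53% of all). Of the 14 liver list genes with a liver-only promoter, 5 held C/EBP letters, Hpx among them. A match is a description of letters and not a bound site.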

How the data were processed

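RNA-seq and ATAC-seq of young kidney and liver were compared, with samples grouped by their titles. The deposited RNA values are raw counts per gene, which the authors made without regard to strand, by HTSeq 0.12.4 from reads trimmed by Trimmomatic 0.39 and placed on mm10 by HISAT2 2.2.1. Genes that overlap on opposite strands, or that have near-identical copies such as Ass1, are therefore uncertain. For ATAC-seq the authors used Bowtie2 2.3.5.1 and ran MACS2 on single libraries. What they deposited is a fold enrichment for each peak, its ratio to the local background, and, per the file columns, −log10 p and −log10 q. The files list called peaks alone, so a promoter without a peak has no measured level. Positions are those of GRCm38 with GENCODE vM21, in which 24534 of 24984 gene names were found.

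The members, gene lists and motifs were chosen with earlier results of these data known. The list genes were described with those of most expression in the organ, beside the 5 genes of each pair of directions with the smallest larger p of both fits, and genes outside these rules are said to be so. Hox genes were added as a list after results were known. Lists for proximal tubule, loop and distal tubule, collecting duct, podocyte, kidney and liver transcription factors, liver secreted proteins, liver metabolism, both organs, every cell, other organs and other cell types were used. Counts cover whole lists, though the values of some list genes are not reported here.

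RNA counts were tested with edgeR 4.0.16 (quasi-likelihood F test, TMM, filterByExpr with a minimum count of 10), with calls at an adjusted p (Benjamini-Hochberg) under 0.05 and a fold above 2 or below 0.5. RNA depth was 14238228 to 21879849 counts per kidney and 20703387 to 22783194 per liver library, and 15.3% to 16.4% and 9.2% to 11.4% of reads lay outside genes or were ambiguous and stayed out of the sizes. The median log2 fold change of all genes was 0.08. Promoter enrichment was tested with limma 3.58.1 (trend) on log2(fold enrichment + 1). Library measures were compared with two-sided exact permutation tests. RNA libraries of the same number correlated across the organs in their deviations from the group means, at 0.12, 0.22, 0.10 and 0.45. Each lay above 0.1, the rule used here for pairing. Kidney library 1 and liver library 2 did so too, at 0.24, higher than the same-number values other than 0.45. The remaining pairs of unlike number ran from −0.34 to 0.07. The rule thus cannot decide whether the numbers pair the libraries, and the labels do not say what a number marks. The main RNA fit did not use the number. ATAC libraries of the same number did not correlate (−0.002, 0.010 and −0.001). The scripts were tested on simulated data. Alternatives were DESeq2 1.42.0, other size factors, filters, windows, peak cutoffs, scalings, the replicate number as a block and fits without each library.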

Additional observations from a re-analysis of the deposited data

Results flagged for a closer look

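In 8 of the 117 groups of 4 RNA libraries tested for the genes looked at here, 1 library stood apart by its gap to the next divided by the range, beyond the 95% limit of Dixon's ratio for 4 values. Chance alone does this in about 1 of 20 groups, so that this number is close to what chance gives. In kidney, Alb had a low library (7.02 CPM against 10.3 to 10.8, a ratio of 0.856), Mmp19 a low one (0.0807 against 0.869 to 0.917 CPM, 0.943) and Il1rn a high one (0.439 against 0.0306 to 0.0807 CPM, 0.877). In kidney, Tat had 0.0306 CPM in 1 library and Hao1 0.0917 CPM, with 0 in the others, a ratio of 1 in both. In liver, Hsd11b2 had 0.0626 CPM in 1 library and 0 in the others (1). Cebpa had 515 CPM in 1 liver library and 471 to 477 in the others (0.850), and Pck1 3890 CPM in 1 and 3170 to 3260 in the others (0.877).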

How the results depend on the processing

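The 20 genes at the top of both fits kept their direction and call in RNA under each setting tried. In their promoters Gata3 (0.87) and Trabd2b (1.68) turned with a 500 bp window, Sec14l2 lost its call with 2 kb, and Dmrt2 did without a kidney library (adjusted p 0.0547 to 0.0683). A minimum −log10 q of 5 turned the differences in peak number (14761) and promoter share (−1.94), gave 13300 kidney-only and 5343 liver-only regions, 10.89% promoters among the former, 67.76% and 41.74% of them seen in old libraries, distal medians of 1.26 and −0.91, promoter medians of 2.91 and −7.92, 8 liver list genes and 674 promoters higher in liver. An equal number of top peaks per library, which fixes the peak number, gave 74.15%, −0.80, 5.03, −10.04 and 9 for the old kidney share, the liver distal median, the promoter medians and the liver list. Windows of 500 bp and 2 kb gave promoter shares of 5.20% and 10.27% for kidney-only and 2.93% and 8.44% for liver-only regions, and 2 kb a kidney promoter median of 5.91. A reach of 100 kb gave 1.31 and −0.85. Promoters higher in kidney and in liver numbered 6553 and 402 with no scaling, 1270 and 1312 with quantile scaling, 899 and 1333 with a peak in all 6 libraries, and 940 and 955 with both, which was chosen after seeing the data, so that the organ with more depends on the setting. The Spearman value of promoter and RNA differences was −0.20 and −0.21 in these last settings, 0.10 with a peak in any library, and 0.02 with the stricter q or equal peak numbers. An adjusted p alone called 4246 genes higher in liver RNA. Of the 5000 top peaks, 9 of 14 motifs did not overlap and GRHL turned (−0.02).

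With the replicate number as a block, 746 promoters were higher in liver and 1147 in kidney, and 3674 and 2330 genes in kidney and liver RNA. DESeq2 called 3613 and 2394 genes. The cause of these changes was not tested.

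Leaving out 1 library at a time gave 12790 to 17822 liver-only and 22032 to 27656 kidney-only regions, promoter shares of 4.33% to 4.92% and 6.65% to 7.51%, and 47.44% to 60.80% and 60.19% to 71.03% of them seen in the old libraries of the organ. With fewer libraries the rule for an organ-only region is looser, which raises the number of regions. The promoter medians ran from −10.53 to −9.49 in liver and 5.01 to 5.78 in kidney, and the distal medians from −1.13 to −0.80 and 1.16 to 1.5. Promoters higher in kidney numbered 81 to 1550 and in liver 287 to 691, and the Spearman value ran from −0.02 to 0.07. Without an ATAC library the organ-only promoters of its organ did not pass the filter of 3 libraries, which bears on these values.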
